A study of Homo sapiens with 6 samples.

Results

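The PAF1 complex subunits PAF1, CTR9, CDC73 and LEO1, the H2B ubiquitin ligase subunits RNF20 and RNF40, and the histone methyltransferase DOT1L were followed in a pooled CRISPR growth screen. These 7 genes were chosen by name from the 7093 genes of the guide table, and 10 guides targeted each of them. They account for 70 of the 71626 guides, and all 70 passed the filter on low library counts.

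The PAF1 complex travels with RNA polymerase II along transcribed genes and helps recruit the enzymes that mark their chromatin. CTR9 and PAF1 form much of its scaffold, and CDC73, also known as parafibromin, and LEO1 are further subunits. RNF20 and RNF40 act as a pair that attaches ubiquitin to histone H2B in transcribed regions. This ubiquitin stimulates DOT1L, the main enzyme that methylates lysine 79 of histone H3. SETD2, the gene mutated in one of the lines, places trimethylation of lysine 36 of histone H3 on the same transcribed gene bodies.

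The screen was run in HAP1 cells, a human line with a near-haploid genome that originated in chronic myeloid leukaemia. The groups were SETD2-mutant HAP1 cells, parental HAP1 cells and the guide library, with 2 samples each. Both lines were transduced at a multiplicity of infection of 0.7, divided into replicates afterwards and kept under puromycin for 12 doublings. The labels do not give the SETD2 mutation, the number of clones, the nuclease or how the library samples were taken. Since the replicates of a line were split after transduction, the p-values of single guides cover only the spread between these samples. The p-values of genes measure how far the guides of a gene rank together among all guides, and not a spread between independent transductions. A guide that became rarer can mark slower growth or death of the cells that carry it, and counts cannot tell these apart. Guide counts hold no expression, so the HAP1 label could not be checked against marker genes.

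Totals per sample lay between 25082426 and 38428425 counts. SETD2 itself was read as a check of the labels. Its 10 guides had a geometric mean of 18.9 and 19.6 CPM (counts scaled to a common library size) in SETD2-mutant cells, 13.9 and 13.0 CPM in parental cells, and 29.2 and 29.5 CPM in the library. SETD2 was not called against the library in SETD2-mutant cells (−0.61, adjusted p = 0.739 by edgeR and RRA) and was depleted in parental cells (−1.12, adjusted p = 0.000298). Between the lines it was enriched by 0.50 (SE 0.216, adjusted p = 0.00624). Loss of SETD2 guides reads growth and not the genotype.

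Values below are geometric means over the 10 guides of a gene in CPM. For each gene, the log2 changes of its guides from edgeR were averaged. The standard error (SE) is across these guides, which are not replicates of a condition. Calls are by robust rank aggregation (RRA) of the guides, at an adjusted p below 0.05 over all 7090 genes tested. Against the library, 3 of the 7 genes were called depleted and 0 enriched in SETD2-mutant cells, where 9.04% of all genes were depleted and 1.11% enriched. In parental cells 6 of the 7 were depleted and 1, DOT1L, was enriched, where 9.9% of all genes were depleted and 1.11% enriched. Between the lines 1 gene, DOT1L, was depleted and 2, CDC73 and LEO1, were enriched, in SETD2-mutant over parental cells, where 1.28% of all genes were depleted and 1.03% enriched.

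**Figure D1:**
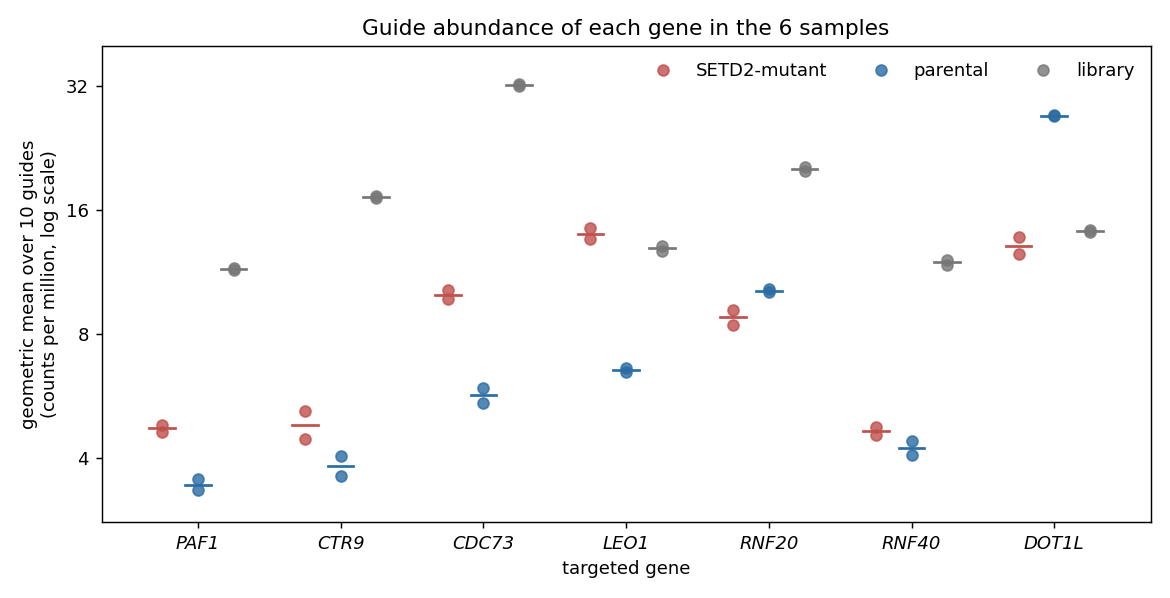
Guide abundance of each gene in every sample, as the geometric mean over 10 guides in CPM on a log scale, with SETD2-mutant, parental and library samples from left to right, 1 point per sample and a line at the mean of the log values. The replicates of a group lie close together, LEO1 and CDC73 stand higher in SETD2-mutant than in parental cells, and DOT1L stands at about 27 CPM in parental cells alone.

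LEO1 guides stayed near their library level in SETD2-mutant cells and were depleted from parental cells. They stood at 13.6 and 14.4 CPM in SETD2-mutant cells, 6.49 and 6.62 CPM in parental cells, and 12.8 and 13.1 CPM in the library. The SETD2-mutant samples lay above the parental samples and slightly above the library, and no groups overlapped. LEO1 changed by 0.13 (SE 0.145, 3 of 10 guides lower) from the library in SETD2-mutant cells and was not called (adjusted p = 1 by edgeR and RRA). In the parental line it was depleted by −0.98 (SE 0.164, 10 of 10 guides lower, adjusted p = 0.00547). Between the lines it was enriched by 1.10 (SE 0.199, 9 of 10 guides higher, adjusted p = 9.6e-08).

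The LEO1 difference was spread over its guides. Tested singly, 9 of the 10 guides were higher in SETD2-mutant cells at an adjusted p below 0.05 by edgeR, against 11.5% of all guides. Guide HZD_EPI_04041 differed the most, with 208 and 375 counts in SETD2-mutant cells, 92 and 70 in parental cells, and 324 and 330 in the library. The exception was HZD_EPI_04040, at −0.28 between the lines, with 72 and 141 counts in SETD2-mutant cells and 133 and 171 in parental cells. Of the 10 guides, 7 stood above the library in SETD2-mutant cells and below it in parental cells, and 3 stood below it in both.

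CDC73 guides were lost from both lines, and less so from SETD2-mutant cells. They stood at 10.3 and 9.71 CPM in SETD2-mutant cells, 5.45 and 5.93 CPM in parental cells, and 32.1 and 32.4 CPM in the library. Both lines lay well below the library and did not overlap each other. CDC73 was depleted from the library by −1.66 (SE 0.411, 8 of 10 guides lower, adjusted p = 0.000463 by edgeR and RRA) in SETD2-mutant cells and by −2.51 (SE 0.450, 10 of 10 guides lower, adjusted p = 3.43e-08) in parental cells. Between the lines it was enriched by 0.85 (SE 0.245, 8 of 10 guides higher, adjusted p = 0.000273).

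Single CDC73 guides differed widely in strength. The guides ran between −3.45 and 0.70 in SETD2-mutant cells and between −5.02 and −0.21 in parental cells. Between the lines 7 of the 10 were higher in SETD2-mutant cells by edgeR and 0 were lower, where 11.5% of all guides were higher and 12.8% lower. Guide HZD_EPI_01009, the most depleted in parental cells, had 46 and 173 counts in SETD2-mutant cells, 35 and 34 in parental cells, and 1252 and 1079 in the library. Its SETD2-mutant replicates lay further apart than its parental ones. Guide HZD_EPI_01008 had 292 and 377 counts in SETD2-mutant cells, 141 and 85 in parental cells, and 805 and 789 in the library.

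PAF1, the subunit that gives the complex its name, had all 10 guides lower in each line. It stood at 4.64 and 4.82 CPM in SETD2-mutant cells, 3.35 and 3.57 CPM in parental cells, and 11.4 and 11.5 CPM in the library. The SETD2-mutant samples lay above the parental samples, and both lay below the library. Its change from the library was −1.28 (SE 0.324) in SETD2-mutant cells, where it was not called (adjusted p = 0.353 by edgeR and RRA), and it was depleted by −1.73 (SE 0.210, adjusted p = 5.09e-06) in parental cells. The call in SETD2-mutant cells turned to depleted when parental replicate 1 or parental replicate 2 was left out of the fit (adjusted p = 0.0431 each) and when only the 2 groups were fitted (adjusted p = 0.0335). Between the lines PAF1 differed by 0.45 (SE 0.265, 6 of 10 guides higher) and was not called (adjusted p = 0.653). PAF1 would pass for enrichment there, and for depletion in SETD2-mutant cells, at an unadjusted p under 0.05.

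The PAF1 guides fell into a mixed set between the lines. Guide HZD_EPI_04814 was 2.26 higher, with 124 and 176 counts in SETD2-mutant cells, 33 and 42 in parental cells, and 284 and 247 in the library. Guide HZD_EPI_04822 stood at −0.59, with 28 and 50 counts in SETD2-mutant cells, 78 and 63 in parental cells, and 493 and 449 in the library. By edgeR 3 guides were higher in SETD2-mutant cells and 0 lower, against 11.5% and 12.8% of all guides.

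CTR9 guides were lost from both lines, with 9 of 10 down in each. They stood at 4.47 and 5.22 CPM in SETD2-mutant cells, 4.06 and 3.62 CPM in parental cells, and 17.1 and 17.3 CPM in the library. The lines did not overlap but lay closer to each other than to the library. CTR9 was depleted from the library by −1.87 (SE 0.649, adjusted p = 0.0160 by edgeR and RRA) in SETD2-mutant cells and by −2.11 (SE 0.550, adjusted p = 3.55e-05) in parental cells. The SETD2-mutant call was lost when samples were scaled on the guides labelled dummyguide (−2.79, adjusted p = 0.0561) and under a stricter RRA rank limit, 0.1 (adjusted p = 0.0930). Between the lines CTR9 differed by 0.24 (SE 0.450, 8 of 10 guides higher) and was not called (adjusted p = 0.629 for enrichment), and the median over its guides was 0.59. CTR9 would pass there for enrichment at an unadjusted p under 0.05.

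A pair of CTR9 guides stood apart. Guide HZD_EPI_01420 rose in both lines, with 1347 and 1866 counts in SETD2-mutant cells, 2838 and 2871 in parental cells, and 1018 and 940 in the library. It held the highest counts of the gene in cells, and summed counts, which weight guides by their counts, gave smaller losses of −0.82 in SETD2-mutant cells and −0.79 in parental cells. Guide HZD_EPI_01418 had 3 and 5 counts in SETD2-mutant cells, 60 and 43 in parental cells, and 386 and 363 in the library. Between the lines HZD_EPI_01418 (−3.37) and HZD_EPI_01420 (−0.56) were lower in SETD2-mutant cells, and the other 8 guides of the gene were higher.

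Over the 4 PAF1 complex subunits the median change between the lines was 0.65, where the median of all genes was −0.04. Of their 40 guides, 31 were above 0 between the lines, and edgeR called 22 higher and 2 lower, where it called 11.5% of all guides higher and 12.8% lower. Against the library the median of the 4 subunits was −1.47 in SETD2-mutant cells and −1.92 in parental cells. For scale, the 53 measured ribosomal protein genes had medians of −4.08 in SETD2-mutant and −3.53 in parental cells. Of the 4 subunits, CDC73 and LEO1 were called between the lines, and PAF1 and CTR9 were not. An alternative that set equal loss of ribosomal protein guides in the lines is given with the processing below. A general difference in loss between the lines was otherwise not tested.

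**Figure D2:**
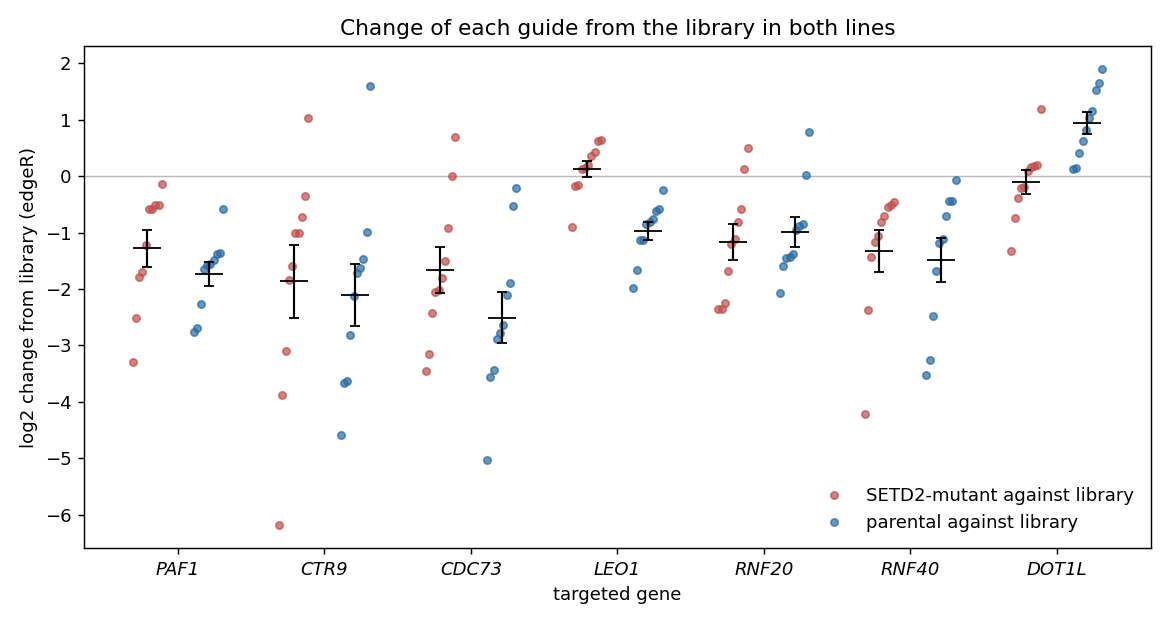
Change of each guide from the library (log2, edgeR), with SETD2-mutant cells left and parental cells right for each gene, 1 point per guide and a black bar with whiskers for the mean ± SE over 10 guides. LEO1 guides centre on 0.13 in SETD2-mutant and −0.98 in parental cells, and DOT1L guides on −0.10 and 0.94.

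RNF20, a RING-finger subunit of the ligase, was depleted from both lines. Its guides stood at 8.43 and 9.17 CPM in SETD2-mutant cells, 10.1 and 10.3 CPM in parental cells, and 20.3 and 19.9 CPM in the library. Unlike the PAF1 complex subunits, its SETD2-mutant samples lay below the parental samples. The change from the library was −1.17 (SE 0.320, adjusted p = 0.00762 by edgeR and RRA) in SETD2-mutant cells and −0.98 (SE 0.265, adjusted p = 0.00378) in parental cells, with 8 of 10 guides lower in each. The parental call was lost under the stricter RRA rank limit (adjusted p = 0.0697). Between the lines the difference of −0.19 (SE 0.249, 6 of 10 guides lower) was not called (adjusted p = 0.679).

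RNF40, its partner, had all 10 guides lower in each line. They stood at 4.77 and 4.57 CPM in SETD2-mutant cells, 4.41 and 4.08 CPM in parental cells, and 11.8 and 12.1 CPM in the library. The lines were nearly level, with a difference of 0.16 (SE 0.322, 5 of 10 guides higher) that was not called (adjusted p = 1 by edgeR and RRA). The change from the library was −1.33 (SE 0.369) in SETD2-mutant cells, not called (adjusted p = 0.143), and −1.49 (SE 0.385, adjusted p = 0.0288) in parental cells, where it was depleted. RNF40 would pass for depletion in SETD2-mutant cells at an unadjusted p under 0.05.

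Both RNF40 calls against the library depended on single samples. The parental call was lost without library replicate 2 (adjusted p = 0.0533 by RRA), parental replicate 2 (0.0545), SETD2-mutant replicate 1 (0.109) or SETD2-mutant replicate 2 (0.111). It was also lost with dummyguide scaling (0.153), with only the 2 groups fitted (0.110) and under the stricter RRA rank limit (0.10). Without SETD2-mutant replicate 1, RNF40 was called depleted in SETD2-mutant cells (adjusted p = 0.0312). The sizes changed little, and only the calls moved, except that dummyguide scaling gave −2.25 in SETD2-mutant cells and −2.27 in parental cells.

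Between the lines, edgeR called 3 RNF20 guides lower and 2 higher in SETD2-mutant cells, and 1 RNF40 guide lower and 2 higher, where it called 12.8% of all guides lower and 11.5% higher. RNF40 guide HZD_EPI_05954 was 2.44 higher, with 195 and 117 counts in SETD2-mutant cells, 50 and 24 in parental cells, and 369 and 353 in the library. RNF20 guide HZD_EPI_05950 was −1.29 lower, with 66 and 217 counts in SETD2-mutant cells, 444 and 360 in parental cells, and 847 and 760 in the library. RNF20 guide HZD_EPI_05948 rose in both lines, with 915 and 1297 counts in SETD2-mutant cells, 1705 and 1557 in parental cells, and 1028 and 923 in the library.

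DOT1L was the only one of the 7 genes whose guides gained ground in parental cells. They stood at 12.5 and 13.8 CPM in SETD2-mutant cells, 27.2 and 27.0 CPM in parental cells, and 14.3 and 14.2 CPM in the library. The parental samples were almost level with each other and well above the library, while the SETD2-mutant samples lay just under the library. DOT1L changed by −0.10 (SE 0.210, 5 of 10 guides lower) in SETD2-mutant cells and was not called (adjusted p = 1 by edgeR and RRA). In the parental line it was enriched by 0.94 (SE 0.199, 10 of 10 guides higher, adjusted p = 0.00323). Between the lines it was depleted by −1.04 (SE 0.207, 9 of 10 guides lower, adjusted p = 0.000125).

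Across single guides, edgeR called 7 of 10 DOT1L guides lower in SETD2-mutant than in parental cells and 0 higher, against 12.8% and 11.5% of all guides. Guide HZD_EPI_01674 rose the most in parental cells, with 323 and 637 counts in SETD2-mutant cells, 2018 and 1794 in parental cells, and 533 and 515 in the library. Guide HZD_EPI_01672 differed most between the lines, at −1.86, with 155 and 249 counts in SETD2-mutant cells, 1156 and 632 in parental cells, and 314 and 262 in the library. Guide HZD_EPI_01680 went up in both lines, with 431 and 822 counts in SETD2-mutant cells, 824 and 633 in parental cells, and 369 and 302 in the library, and it was the 1 guide not lower in SETD2-mutant cells (0.03). Of the 10 guides, 5 stood below the library in SETD2-mutant cells and above it in parental cells, and 5 stood above it in both.

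The changes from the library are relative to the other guides in each sample. Scaling on the 100 dummyguide guides, whose meaning is not stated, moved the median of all genes by −0.92 in SETD2-mutant and −0.78 in parental cells, and by −0.15 between the lines. On that scale DOT1L stood at −1.03 in SETD2-mutant and 0.17 in parental cells, where it was still called enriched (adjusted p = 0.0127 by edgeR and RRA). LEO1 stood at −0.80 in SETD2-mutant cells, the other sign than with TMM scaling, and at −1.75 in parental cells. On the same scale CDC73 stood at −2.59 in SETD2-mutant cells, and RNF20 at −2.09 in SETD2-mutant and −1.76 in parental cells. Between the lines the calls of LEO1 (0.96), CDC73 (0.70) and DOT1L (−1.19) were unchanged by this scaling. Calls rest on the ranks of guides, which a shift common to all guides leaves largely in place. A call that held, such as that of DOT1L in parental cells, is therefore a weak check of the scaling.

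**Figure D3:**
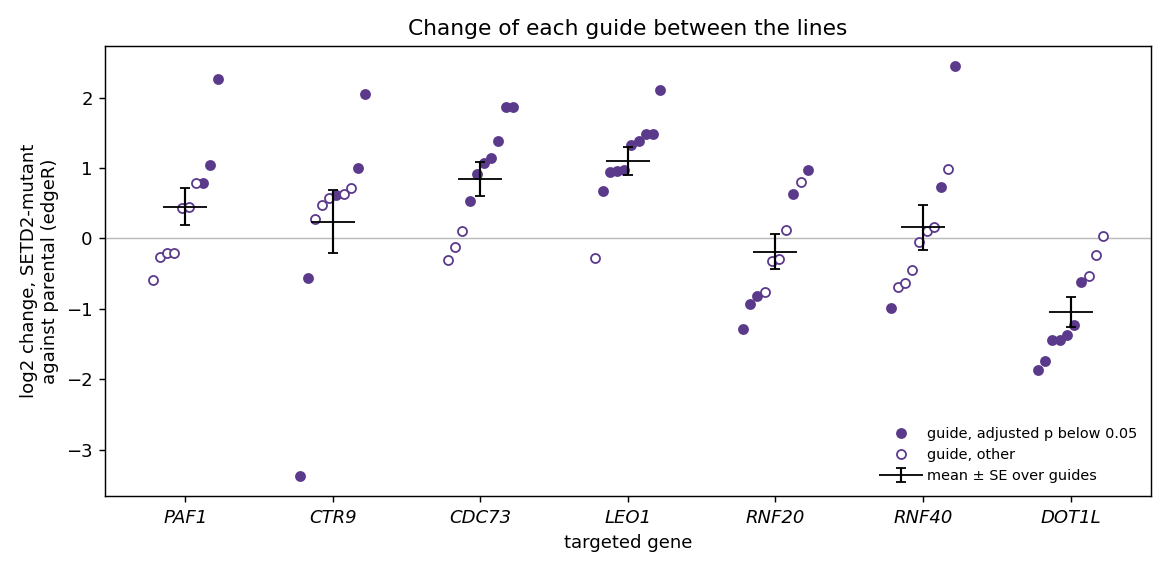
Change of each guide in SETD2-mutant against parental cells (log2, edgeR), sorted within each gene, with filled points for guides at an adjusted p below 0.05 and a black bar with whiskers for the mean ± SE over 10 guides. LEO1 has 9 and CDC73 has 7 filled points above 0, DOT1L has 7 below 0, and PAF1, CTR9, RNF20 and RNF40 spread over both sides.

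In order of their change in SETD2-mutant cells, from most lost, the genes were CTR9, CDC73, RNF40, PAF1, RNF20, DOT1L and LEO1. Of the steps between neighbours, the 1.07 between RNF20 and DOT1L lay beyond the joint SE over guides (0.382), and the other 5 lay within theirs. In parental cells the order was CDC73, CTR9, PAF1, RNF40, RNF20, LEO1 and DOT1L. There the steps beyond the joint SE were the 0.51 between RNF40 and RNF20 (joint SE 0.468) and the 1.92 between LEO1 and DOT1L (joint SE 0.257). Between the lines the order was DOT1L, RNF20, RNF40, CTR9, PAF1, CDC73 and LEO1, with steps beyond the joint SE between DOT1L and RNF20 (0.86) and between PAF1 and CDC73 (0.40, joint SE 0.361). The joint SE is across guides, so a step beyond it is no test of a difference between genes.

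Replicates of the groups overlapped for 0 of the 7 genes in each comparison. Between the lines 5 genes were higher and 2 lower in SETD2-mutant cells, where 26.9% of all genes were higher and 38.8% lower without overlap. Against the library 6 were lower and 1 higher in SETD2-mutant cells (49.2% and 36.1% of all genes), and the same in parental cells (45.6% and 39.3%). Of the 70 guides, edgeR called 38 lower and 5 higher in SETD2-mutant cells, where it called 23.7% and 22.2% of all guides. In parental cells it called 50 lower and 9 higher, where it called 21.1% and 18.9% of all guides.

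Other ways of calling a gene gave other counts. Limma on gene means called 2 of the 7 genes depleted (RNF20 beside DOT1L) and 4 enriched (PAF1 and CTR9 beside CDC73 and LEO1) between the lines, where it called 22.4% of all genes depleted and 12.8% enriched. Counts summed per gene called the same 2 depleted and 3 enriched (PAF1 at 0.62 beside CDC73 and LEO1), where they called 21.2% of all genes depleted and 20% enriched. In SETD2-mutant cells limma called 5 of the 7 depleted against the library and summed counts also 5, PAF1 and RNF40 added in each, where they called 38.1% and 32.7% of all genes. Under the stricter RRA rank limit 2 of the 7 were depleted in SETD2-mutant cells and 3 in parental cells, where 6.32% and 7.42% of all genes were. LEO1 was among those not called depleted in parental cells under it (adjusted p = 0.384 by edgeR and RRA).

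All 70 guides carried the EPI class in their identifiers. Of the 816 genes of that class, 4.41% were depleted and 3.19% enriched between the lines, and 22.8% were depleted in SETD2-mutant and 25.4% in parental cells. The class as a whole had a median of −0.04 between the lines, like the other genes. Against the library it lay lower than they did, with medians of −0.24 against −0.03 in SETD2-mutant cells and −0.20 against 0.0004 in parental cells.

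The genes lie on 6 chromosomes (RefSeq, GRCh38.p14). LEO1 is on chromosome 15 (51938025 to 51971778), CDC73 on chromosome 1 (193122031 to 193254815) and CTR9 on chromosome 11 (10751246 to 10779746). Chromosome 19 holds DOT1L (2163933 to 2232578) and PAF1 (39385629 to 39391106). RNF20 is on chromosome 9 (101533853 to 101563344) and RNF40 on chromosome 16 (30761612 to 30776307). Genes within 5 Mb of LEO1 had a median of −0.03 between the lines (19 genes), those near CDC73 −0.34 (7 genes) and those near DOT1L −0.09 (70 genes). Near LEO1 and CDC73, RRA on edgeR's fit called 0 of these neighbours, and near DOT1L it called 2 depleted. The part of position in the differences was not tested.

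Other genes of H2B ubiquitination, H3K79 methylation and transcript elongation were taken from a list of 41, of which 20 were measured. Between the lines 0 of the 20 were depleted and 2 enriched, with a median of −0.15 where all genes had −0.04 and 1.28% of them were depleted and 1.03% enriched. Against the library 7 were depleted and 1 was enriched in SETD2-mutant cells, where 9.04% of all genes were depleted and 1.11% enriched, with a median of −0.39 for the list and −0.05 for all genes. The same numbers held in parental cells, where 9.9% of all genes were depleted and 1.11% enriched, with a median of −0.64 for the list and −0.01 for all genes.

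The 2 genes enriched between the lines were USP22 and ATXN7. USP22, the enzyme of the SAGA coactivator that removes ubiquitin from H2B, stood at 24.9 and 22.1 CPM in SETD2-mutant cells, 9.07 and 9.25 CPM in parental cells, and 18.4 and 18.8 CPM in the library. All of its 10 guides were up between the lines, with a change of 1.36 (SE 0.151, adjusted p = 2.17e-10 by edgeR and RRA). Like LEO1, it was not called against the library in SETD2-mutant cells (0.34, adjusted p = 0.247 for enrichment by edgeR and RRA) and was depleted in parental cells (−1.02, adjusted p = 0.000594). ATXN7, which anchors that deubiquitinase module to SAGA, was enriched by 0.62 (SE 0.148, adjusted p = 0.0105), with 23.4 and 23.2 CPM in SETD2-mutant cells and 14.7 and 15.6 CPM in parental cells.

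Other subunits of the deubiquitinase module did not follow USP22. ATXN7L3, which activates USP22, was depleted by −2.72 in SETD2-mutant and −2.02 in parental cells. ENY2, a small subunit that SAGA shares with the mRNA export machinery, was measured by 8 guides and depleted by −3.38 in SETD2-mutant and −2.82 in parental cells. Between the lines ATXN7L3 stood at −0.70 (SE 0.432) and ENY2 at −0.56 (SE 0.344), neither of them called (adjusted p = 0.624 and 1 by edgeR and RRA). ATXN7L3 would pass there for depletion at an unadjusted p under 0.05, and ENY2 would not.

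Writers of the H2B mark next to the ligase gave small changes. The ubiquitin-conjugating enzymes UBE2A and UBE2B, which are close relatives, changed by 0.04 and 0.13 in SETD2-mutant cells and by 0.11 and −0.01 in parental cells. WAC, an adaptor of the RNF20 and RNF40 ligase, stood at −0.45 (SE 0.307) in SETD2-mutant and −0.51 (SE 0.238) in parental cells. RRA called 0 of these 3 genes in the 3 comparisons. At an unadjusted p under 0.05, UBE2B would pass once, for enrichment in SETD2-mutant cells.

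Of 3 measured partners of DOT1L, 1 was called against the library. MLLT10 and MLLT6 bind DOT1L and stimulate its activity on chromatin. MLLT10 stood at 0.03 (SE 0.224) in SETD2-mutant and 0.28 (SE 0.167) in parental cells, and MLLT6 at −1.32 (SE 0.406) in SETD2-mutant and −1.10 (SE 0.345) in parental cells, and RRA called neither. Between the lines MLLT10 stood at −0.25 (SE 0.135) and MLLT6 at −0.22 (SE 0.172). At an unadjusted p under 0.05, MLLT10 would pass for enrichment in parental cells and MLLT6 for depletion in each line. MLLT1, a reader of acylated histones, was listed with 119 guides, of which 109 carried the CTRL class in their identifiers. Over all 119 it was called enriched by 0.46 in SETD2-mutant and 0.32 in parental cells. With only the 10 other guides, an alternative chosen after seeing the data, it was enriched in SETD2-mutant cells (0.49, adjusted p = 0.0479 by edgeR and RRA) and not called in parental cells (0.30, adjusted p = 0.309). The 109 guides of the CTRL class had means of 0.46 in SETD2-mutant and 0.33 in parental cells, close to those of the 10 others. The MLLT1 calls therefore do not set it apart from the CTRL class.

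Among elongation factors and the histone chaperone FACT, 4 of 6 measured genes were depleted from both lines. CDK9, the kinase of P-TEFb, was depleted by −2.89 in SETD2-mutant and −2.65 in parental cells. SUPT6H, an elongation factor that also handles histones, was depleted by −3.21 in SETD2-mutant and −2.43 in parental cells. The FACT subunits SUPT16H and SSRP1 stood at −2.70 and −2.02 in SETD2-mutant cells and at −2.66 and −1.52 in parental cells, depleted in each. TCEA1, which helps stalled polymerase resume, stood at −0.06 in SETD2-mutant and −0.59 in parental cells, and the elongation kinase CDK12 at −0.72 in SETD2-mutant and −0.69 in parental cells, and RRA called neither. At an unadjusted p under 0.05, CDK12 would pass for depletion in each line and TCEA1 in parental cells. Between the lines TCEA1 stood at 0.53 (SE 0.183, adjusted p = 0.0544 for enrichment by edgeR and RRA) and CDK12 at −0.03. Between the lines RRA on edgeR's fit called 0 of CDK9, SUPT6H, SUPT16H and SSRP1. At an unadjusted p under 0.05, CDK9 and SSRP1 would pass there for depletion. MEN1, a partner of the H3K4 methyltransferase KMT2A, was depleted in SETD2-mutant cells (−0.99, adjusted p = 0.00180) and not called in parental cells (−0.69, adjusted p = 0.151), with −0.30 between the lines (adjusted p = 0.553). KMT2A stood at 0.11 in SETD2-mutant and −0.32 in parental cells, and at 0.43 (SE 0.211) between the lines. RRA on edgeR's fit called KMT2A in no comparison (adjusted p = 0.0781 for enrichment between the lines). KMT2A would pass there for enrichment at an unadjusted p under 0.05, and MEN1 for depletion there and in parental cells.

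**Figure D4:**
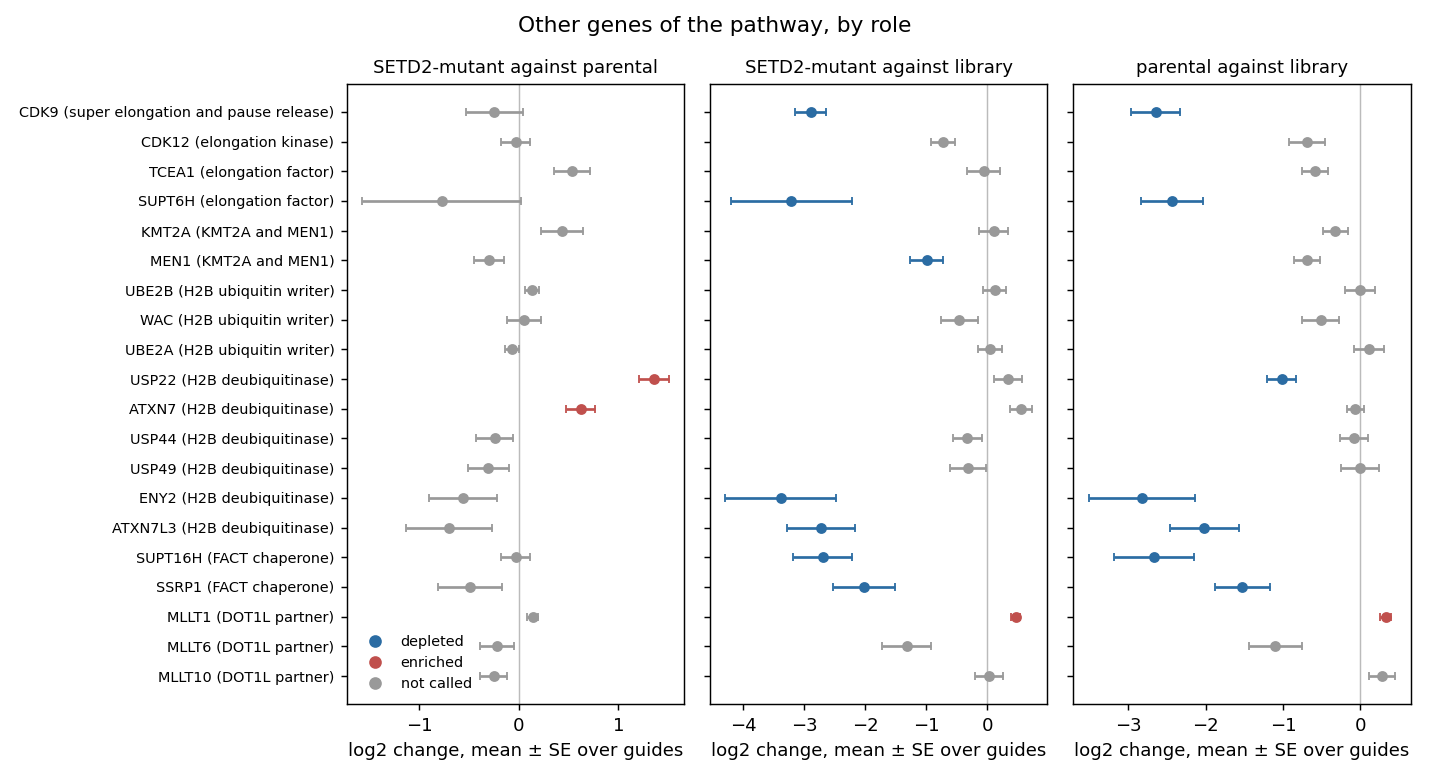
Changes of the 20 other measured genes of the pathway (log2, mean ± SE over guides), grouped by role, between the lines on the left and against the library in SETD2-mutant and parental cells in the middle and on the right, coloured by call. USP22 stands furthest above 0 between the lines, at 1.36, and CDK9, SUPT6H, SUPT16H, SSRP1, ENY2 and ATXN7L3 are depleted in both lines.

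Genes with the pattern most like that of each member were taken as those at the smallest distance over the mean log2 changes in the 4 cell samples. DOT1L lay nearest to SETDB1 (distance 0.202), which changed by −0.20 in SETD2-mutant and 0.93 in parental cells, and to FAM173A (distance 0.336). LEO1 lay nearest to ACTB (0.219), with 0.23 in SETD2-mutant and −0.90 in parental cells, and to NMNAT1 (0.249). CDC73 lay nearest to ATP6AP2 (0.151) and KANSL2 (0.198), PAF1 to SUZ12 (0.109) and FANCC (0.15), and CTR9 to CLSPN (0.162) and CRKL (0.195). RNF20 lay nearest to ITGA11 (0.154) and LIAS (0.163), and RNF40 to BRIP1 (0.110) and KANSL1 (0.164). The median distance to all genes ran between 1.41 for DOT1L and 4.22 for CDC73.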

How the data were processed

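The authors deposited raw counts per guide for 6 samples, read as single-end reads of 75 bp from genomic DNA per the labels' protocols. The submitters' processing notes name MAGeCK and hg38, whose role and version are not given in the sources used here. All columns matched a sample title. Of the guides, 71470 averaged at least 30 counts in the library and were kept, and the 100 dummyguide guides were left out of the tests. Counts were scaled by TMM and fitted by group over all 6 samples with edgeR 4.0.16 in R 4.3.3 (glmQLFit, robust, glmQLFTest). Guides were combined by RRA with a rank share limit of 0.25 and an exact null, rebuilt because MAGeCK was not run, for the 7090 genes with 3 or more guides, with Benjamini-Hochberg adjustment in each direction. CPM are TMM-scaled with a prior count of 2. The steps were tested on simulated data, with the same spread for all guides and the same change for all guides of a changed gene. That test does not cover genes whose guides differ in strength. Alternatives used limma 3.58.1 and DESeq2 1.42.0.

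The members and lists were chosen with earlier results of these data known, and 1 listed gene is not reported here. All 7 members were named, as was each list gene called in a comparison, and some others by role after their values were seen. The comparisons with the library share its samples. Between replicates the chi-square per degree of freedom was 12.9 in SETD2-mutant cells, 14.1 in parental cells and 1.37 in the library, where counting error gives about 1. Guide sequences were not used here. Of the gene symbols, 6757 were current in RefSeq and 316 matched by 1 synonym.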

Additional observations from a re-analysis of the deposited data

Results flagged for a closer look

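Of the 7 genes, 3 changed differently from the library in SETD2-mutant and parental cells, by the edgeR and RRA test of the difference between the lines. That test called 1.28% of all genes depleted and 1.03% enriched, and 4.41% and 3.19% of the EPI class. LEO1 was higher in SETD2-mutant cells by 1.10, CDC73 was higher by 0.85, and DOT1L was lower by −1.04. The replicates of a line, 2 each, were too few to look for an outlying sample.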

How the results depend on the processing

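The calls of LEO1, CDC73 and DOT1L between the lines held under 18 alternatives in which they were tested again, with changes between 0.96 and 1.14, 0.70 and 1.05, and −1.19 and −0.99, and adjusted p up to 7.88e-05, 0.00470 and 0.00367. These included equal loss of ribosomal protein guides in the lines, which gave 1.09, 1.05 and −1.03. Alternatives that only rescaled the samples largely keep the ranks of the guides, on which the calls rest. The median over guides, chosen after seeing the data and not tested, was 1.15 for LEO1, 0.99 for CDC73 and −1.29 for DOT1L. With the replicate block the counts were 1 depleted and 2 enriched between the lines, 3 depleted in SETD2-mutant cells, and 6 depleted and 1 enriched in parental cells, as without it. Of all 7090 genes, that fit called 88 depleted and 84 enriched between the lines. Against the library it called 642 depleted in SETD2-mutant cells, and 710 depleted and 84 enriched in parental cells. The replicate numbers mark no shared culture in the labels, so they were not taken as pairs. Limma on gene means called 2 members depleted and 4 enriched between the lines, where it called 22.4% and 12.8% of all genes. Summed counts called 2 depleted and 3 enriched, where they called 21.2% and 20% of all genes. Each of these tests called 5 depleted in SETD2-mutant cells, where limma called 38.1% and summed counts 32.7% of all genes. Under the stricter RRA rank limit 3 were depleted in parental cells (7.42% of all genes), with the calls of LEO1, RNF20 and RNF40 lost. With 1 sample left out, only the calls of PAF1 and RNF40 against the library moved, as given above for each gene. Of the member values, 3 changed sign: CTR9 (−0.0305) and RNF40 (−0.0919) between the lines with summed counts, and LEO1 in SETD2-mutant cells with dummyguide scaling (−0.80). None of the 3 had been called. The causes were not tested. Guides with few counts, such as the CTR9 guide at 3 and 5 counts, limit the precision of single-guide values.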
